A study of Homo sapiens with 8 samples.

Results

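The genes described here are 56 genes of mitosis and the kinetochore, the protein assembly that joins each chromosome to the spindle. They were chosen by symbol, and a gene was read where an array probe named for it stood well above background in at least 1 of the 4 groups of samples, on each of its arrays. This held for 54 of the 56 genes, among 16954 genes measured in all. No probe of CENPM or PLK1 was analysed here. A gene with several probes was read at the probe with the highest mean signal, and each probe read was well above background on all 8 arrays.

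Total RNA of OVSAHO and KURAMOCHI cells, established lines of serous ovarian carcinoma, was labelled with 1 dye and hybridised to Agilent SurePrint G3 Human Gene Expression arrays. The 4 groups were OVSAHO cells with simvastatin, OVSAHO cells with L-778123, KURAMOCHI cells with simvastatin and KURAMOCHI cells with L-778123 (written L778123 in the labels), with 2 arrays each. Simvastatin inhibits HMG-CoA reductase, the enzyme at the head of the mevalonate pathway, and L-778123 inhibits the farnesyl and geranylgeranyl transferases that attach products of that pathway to proteins. The study set the drugs against each other to find genes that respond to the statin beyond the loss of protein prenylation.

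Cells without drug or with vehicle were not analysed here, so a drug value is always simvastatin relative to L-778123 and does not show which drug moved a gene. The concentrations and times of these cultures are not given in the sources used here. The labels number the arrays of a group 1 and 2 and do not say that they came from separate cultures, so p-values measure the spread between these arrays, which may be technical. Each group had its own positions on 1 slide, and position and group cannot be told apart. Each line stands for 1 tumour.

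Most of these genes are transcribed late in the cell cycle. Before chromosomes separate, a centromere built on the histone variant CENP-A gathers an inner kinetochore, which in turn carries the outer proteins that bind microtubules. The spindle checkpoint holds cells in mitosis until every kinetochore is attached, and CDC20 then turns on the anaphase promoting complex, which has securin and cyclin B destroyed. Because these messages are abundant in cells about to divide, their level in bulk RNA follows the share of dividing cells as well as the amount of message per cell, and fewer such cells and less RNA per cell cannot be told apart here.

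The 75th percentile of the intensity was 324 to 437 over the arrays, 51.8% to 57.5% of 58162 probes exceeded background, and no spot reached saturation. Pearson's r between replicate arrays was 0.995 to 0.996 across probes. Of 9 epithelial and serous carcinoma markers, all 9 were measured. With both drugs and no overlap of arrays, CDH1, MUC16, EPCAM, KRT7 and PAX8 were higher in OVSAHO and KRT8, KRT18 and MSLN were higher in KURAMOCHI, while WT1 was lower in OVSAHO with L-778123 and higher with simvastatin. Of the leukocyte markers 4 of 6 had a probe, with summed signals of 0.98 to 2.03 times the 75th percentile, against 346 to 672 for the epithelial list, and no probe of CD3E or CD68 passed the filter on background. For the fibroblast list 2 of 6 genes, COL1A1 and COL3A1, had a probe, and both were above background in KURAMOCHI only. Their summed signal was 0.0132 to 0.0224 in OVSAHO, 2.35 to 2.39 in KURAMOCHI with simvastatin and 2.99 to 3.19 there with L-778123, while COL1A2, DCN, LUM and PDGFRB did not pass the filter. Of 5 endothelial markers 4 had a probe, PECAM1 did not pass the filter, and the summed signal was 0.285 to 0.312 in OVSAHO with simvastatin, 0.847 to 0.892 there with L-778123, 0.861 to 0.92 in KURAMOCHI with simvastatin and 1.14 to 1.16 with L-778123. Within that list VWF had a log2 value of -3.30 with simvastatin against L-778123 in OVSAHO, so the lower sum there rests on VWF. The value of TEK was 3.16, but TEK did not exceed background in OVSAHO with L-778123, at 0.0084 and 0.0062, so its size is not settled. The part of these differences in the results below was not tested.

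In OVSAHO cells, the mitosis and kinetochore genes were lower with simvastatin than with L-778123 as a body. On both simvastatin arrays, the signal of each of the 54 genes lay below that on both L-778123 arrays, which 39.8% of all genes also showed. With limma, requiring an adjusted p under 0.05 and a change of 2-fold or more, 40 of the 54 genes were lower, where 5.89% of all genes were. At the same rule 0 of the 54 were higher, where 5.69% of all genes were, and since no member had a value above 0, an unadjusted p adds none. At the adjusted p alone 52 of 54 were lower, against 27.5% of all genes, and the exceptions were BUB3 and SMC4. The median log2 fold change of the 54 genes was -1.20, against 0.01 for all genes, and the range ran from -2.12 for SPC25 to -0.11 for BUB3. In the study's text, terms for the kinetochore and for chromosome segregation are placed with upregulation by simvastatin, which is the opposite direction to these signals under the deposited labels. The study's supplement lists WDR62 and SGO1 among the genes downregulated in OVSAHO by simvastatin against L-778123, which is the same direction as here.

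In KURAMOCHI cells the direction was the same and the size was smaller. The arrays did not overlap for 52 of the 54 genes, with simvastatin lower, against 36.9% of all genes, and the exceptions were again BUB3 and SMC4. By the same rule 17 of 54 were lower, where 2.95% of all genes were, and 0 were higher, where 2.44% were, with no member above 0. At the adjusted p alone 51 of 54 were lower, against 18.4% of all genes, with MIS12, BUB3 and SMC4 as the exceptions. The median was -0.88, against 0.01 for all genes, from -1.67 for ANLN to -0.08 for BUB3. With the normexp background correction the counts called lower were 36 in OVSAHO and 12 in KURAMOCHI. With a fold of at least 1.5 they were 52 and 48, so that the KURAMOCHI count in particular turns on the fold asked for. The shares of all genes under these alternatives were not computed.

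**Figure D1:**
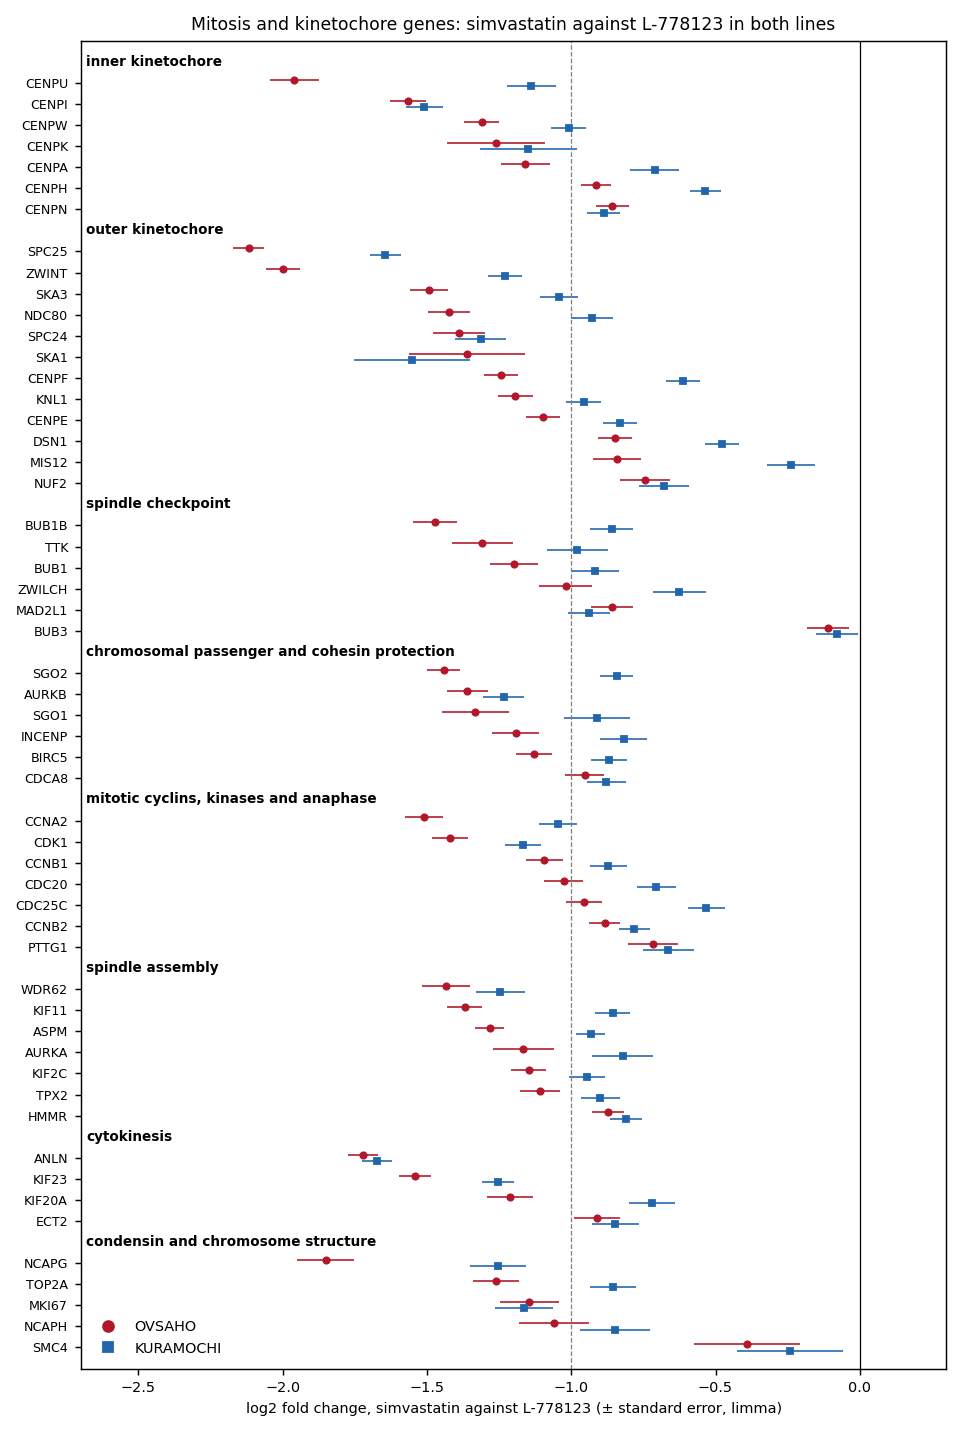
Log2 fold change with simvastatin against L-778123 (x axis, with the limma standard error as bars) for each of the 54 genes (y axis), grouped by role, in OVSAHO (circles) and KURAMOCHI (squares). All values lie left of 0, from -2.12 for SPC25 in OVSAHO to -0.08 for BUB3 in KURAMOCHI, and the dashed line marks a fall to 1/2.

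Promoters of genes expressed at this stage of the cell cycle are known for a short element, the cell cycle genes homology region or CHR, and for CCAAT boxes. The RefSeq promoter table (GRCh38.p14, 250 bases before to 50 after each start) held 58 starts for 47 of the 54 genes, all but CENPH, KNL1, TTK, AURKA, TPX2, BUB3 and BIRC5. The letters TTTGAA, on either strand, were in 31 of the 58 starts (53.4%), against 15.2% of all 35116 starts, and the letters CCAAT, on either strand, in 42 (72.4%), against 34.6%. Both were in 22 starts (37.9%), against 5.9%, and the motifs can share at most 1 base. By role, the share with TTTGAA ran from 2 of 7 starts of passenger and shugoshin genes (28.6%) and 2 of 6 of inner kinetochore genes (33.3%) to 4 of 5 of cytokinesis genes (80%). Among lists of other genes, TTTGAA was in 13 of 18 starts of other spindle and cytokinesis genes (72.2%), 4 of 6 of other condensin subunits (66.7%) and 5 of 16 of regulators of transcription (31.2%). It was in 5 of 19 starts of other kinetochore and centromere genes (26.3%), close to cohesin and its regulators with 3 of 12 (25%), and in 4 of 28 of the anaphase promoting complex and its E2 enzymes (14.3%). By gene, 27 of the 47 held TTTGAA at a listed start and 20 did not. A match of letters describes the window and is not a bound site. The 150 bases before the start are shown for the 5 genes with a promoter that fell furthest in OVSAHO, for CCNB2, a cyclin whose promoter is a textbook case of both elements, and last for PTTG1 and SMC4, the genes with a promoter that fell least, with both motifs, on either strand, in capitals. ZWINT, PTTG1 and SMC4 have 2 listed starts, of which the first listed is shown.
SPC25 (chr2:168890431-168890580, minus strand): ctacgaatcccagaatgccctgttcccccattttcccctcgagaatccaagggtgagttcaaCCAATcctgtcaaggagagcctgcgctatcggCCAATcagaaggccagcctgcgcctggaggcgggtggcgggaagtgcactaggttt
ZWINT (chr10:56361260-56361409, minus strand): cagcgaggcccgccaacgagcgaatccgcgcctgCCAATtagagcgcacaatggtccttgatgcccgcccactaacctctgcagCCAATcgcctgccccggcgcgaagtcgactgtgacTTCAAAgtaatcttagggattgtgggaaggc
CENPU (chr4:184734097-184734246, minus strand): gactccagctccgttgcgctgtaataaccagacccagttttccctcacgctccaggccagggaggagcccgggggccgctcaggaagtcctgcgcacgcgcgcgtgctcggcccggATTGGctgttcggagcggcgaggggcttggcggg
NCAPG (chr4:17810829-17810978, plus strand): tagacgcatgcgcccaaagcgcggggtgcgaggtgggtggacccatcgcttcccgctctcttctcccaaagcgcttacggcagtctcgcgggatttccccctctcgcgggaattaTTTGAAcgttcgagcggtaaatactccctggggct
ANLN (chr7:36389712-36389861, plus strand): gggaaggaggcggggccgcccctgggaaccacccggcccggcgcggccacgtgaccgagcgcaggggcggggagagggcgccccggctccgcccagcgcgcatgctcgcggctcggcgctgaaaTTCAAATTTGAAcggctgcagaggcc
CCNB2 (chr15:59104996-59105145, plus strand): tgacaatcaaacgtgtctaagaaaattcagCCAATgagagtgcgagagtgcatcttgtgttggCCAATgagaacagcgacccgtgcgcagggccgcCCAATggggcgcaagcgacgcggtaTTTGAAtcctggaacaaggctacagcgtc
PTTG1 (chr5:160421705-160421854, plus strand): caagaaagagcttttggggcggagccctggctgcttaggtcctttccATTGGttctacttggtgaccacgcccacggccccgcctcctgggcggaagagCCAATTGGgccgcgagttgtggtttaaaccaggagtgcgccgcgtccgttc
SMC4 (chr3:160399500-160399649, plus strand): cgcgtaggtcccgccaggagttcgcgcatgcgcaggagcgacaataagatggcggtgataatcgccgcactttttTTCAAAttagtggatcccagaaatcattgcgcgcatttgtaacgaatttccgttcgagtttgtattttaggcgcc

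ANLN carried the CHR letters on both strands in one run and NCAPG and ZWINT carried them close to the start, while in SPC25 they fell outside this window and in CENPU they were in no listed start. SMC4, which moved least of these, also held the letters, and PTTG1 did not. Whether the letters go with the size of the fall was not tested.

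The inner kinetochore genes encode the CENP-A nucleosome and the constitutive proteins around it. All 7 that were measured had values below 0 in both lines, with medians of -1.26 in OVSAHO and -1.01 in KURAMOCHI, and 5 and 4 of them were called lower. CENPU, a subunit of the CENP-O group of constitutive proteins, had signals of 2.27 and 2.14 times the 75th percentile with simvastatin and 9.13 and 8.08 with L-778123 in OVSAHO, and of 6.92 and 6.32 against 14.5 and 14.6 in KURAMOCHI. The simvastatin arrays were far below the others in OVSAHO and at under 1/2 of them in KURAMOCHI, with no overlap in either. Its log2 fold change was -1.96 (standard error 0.085, adjusted p = 5.41e-05 from limma) in OVSAHO and -1.14 (standard error 0.085, adjusted p = 6.72e-04) in KURAMOCHI. CENPN, which recognises the CENP-A nucleosome, had signals of 17.7 and 17.6 with simvastatin and 32.0 and 31.9 with L-778123 in OVSAHO, and of 6.81 and 6.91 against 13.1 and 12.3 in KURAMOCHI. It fell by 0.86 (standard error 0.057, adjusted p = 1.83e-04) and by 0.89 (standard error 0.057, adjusted p = 4.43e-04) on the log2 scale, so that it was the least changed of this group in OVSAHO and passed the adjusted p but not the fold in either line. Its probes disagreed in size, since another, which did not exceed background in OVSAHO with simvastatin, was at least 2.3-fold lower there. CENPA itself, the centromeric histone, had values of -1.16 in OVSAHO and -0.71 in KURAMOCHI. CENPI, CENPK and CENPH, 3 subunits of the CENP-H, I, K and M complex, had -1.57, -1.26 and -0.91 in OVSAHO and -1.51, -1.15 and -0.53 in KURAMOCHI, and CENPW, the histone-fold partner of CENP-T, -1.31 and -1.01.

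The outer kinetochore genes encode the microtubule-binding machinery. Their median was -1.30 in OVSAHO, where 9 of 12 were called lower, and -0.94 in KURAMOCHI, where 5 were. SPC25, a subunit of the NDC80 complex, fell furthest of all 54 genes in OVSAHO. Its signal was 1.97 and 2.03 with simvastatin and 8.81 and 8.57 with L-778123 in OVSAHO, and 2.68 and 2.70 against 8.55 and 8.27 in KURAMOCHI. The lines were nearly level with L-778123. The signal with simvastatin was 4.34-fold lower than that in OVSAHO (log2 -2.12, standard error 0.054, adjusted p = 2.02e-05) and 3.13-fold lower in KURAMOCHI (log2 -1.65, standard error 0.054, adjusted p = 1.14e-04). NUF2, another subunit of the same complex, moved least of the group in OVSAHO, with signals of 2.75 and 2.54 against 4.51 and 4.34, and of 3.13 and 3.35 against 5.51 and 4.87 in KURAMOCHI. The arrays did not overlap, and the log2 fold changes were -0.74 (standard error 0.086, adjusted p = 0.00126) and -0.68 (standard error 0.086, adjusted p = 0.00349). The remaining subunits, NDC80 and SPC24, had -1.42 and -1.39 in OVSAHO and -0.93 and -1.31 in KURAMOCHI, so that the 4 genes of this complex spanned from a 1.68-fold to a 4.34-fold fall in OVSAHO.

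ZWINT, which ties the scaffold KNL1 to the ROD, ZW10 and Zwilch complex, had signals of 7.23 and 7.65 with simvastatin and 30.4 and 29.1 with L-778123 in OVSAHO. In KURAMOCHI they were 4.68 and 4.70 against 10.8 and 11.2. The signal was thus highest in OVSAHO with L-778123, and the log2 fold changes were -2.0 (standard error 0.060, adjusted p = 2.27e-05) and -1.23 (standard error 0.060, adjusted p = 2.39e-04), with a second probe at -2.02 and -1.18. CENPF, a large coiled-coil protein of the outer kinetochore, had signals of 35.2 and 37.2 against 86.6 and 84.9 in OVSAHO and of 54.3 and 57.2 against 85.2 and 85.2 in KURAMOCHI. It was level between the lines with L-778123, and fell by 1.24 (standard error 0.060, adjusted p = 7.12e-05) in OVSAHO and by 0.61 (standard error 0.060, adjusted p = 0.00147) in KURAMOCHI on the log2 scale. A dimmer probe of CENPF had -0.95 and -0.62, and so missed the fold in both lines. SKA1, of the SKA complex that follows shortening microtubule ends, had signals of 1.20 and 1.14 against 3.00 and 3.00 in OVSAHO, and of 0.294 and 0.249 against 0.98 and 0.642 in KURAMOCHI. Its KURAMOCHI arrays with L-778123 stood apart from each other, and its log2 fold changes of -1.36 (standard error 0.20, adjusted p = 0.00303) and -1.55 (standard error 0.20, adjusted p = 0.00364) did not pass when the two-way analysis of variance and Tukey's test of the methods were used, at adjusted p of 0.0516 and 0.0605. Its partner SKA3 had -1.49 and -1.04, KNL1 -1.19 and -0.96, and the kinesin CENPE -1.10 and -0.83. MIS12 and DSN1, subunits of the platform on which KNL1 and NDC80 sit, had -0.84 and -0.85 in OVSAHO, and in KURAMOCHI -0.24 (adjusted p = 0.0797) and -0.48 (adjusted p = 0.0032).

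Among the spindle checkpoint genes, 4 of 6 were called lower in OVSAHO and 0 in KURAMOCHI, where 5 passed the adjusted p alone, with medians of -1.11 and -0.89. BUB1B, which encodes the checkpoint protein BubR1, had signals of 2.51 and 2.47 with simvastatin and 7.36 and 6.47 with L-778123 in OVSAHO, and of 4.36 and 4.34 against 7.99 and 7.81 in KURAMOCHI. The lines lay close with L-778123 and apart with simvastatin, at log2 fold changes of -1.47 (standard error 0.075, adjusted p = 8.23e-05) and -0.86 (standard error 0.075, adjusted p = 0.00104). BUB3, the partner that brings BUB1 and BubR1 to the kinetochore, had signals of 29.9 and 30.8 against 33.1 and 32.4 in OVSAHO, and of 12.9 and 11.8 against 12.5 and 13.6 in KURAMOCHI. The treatments were close in OVSAHO and overlapped in KURAMOCHI, and the log2 fold changes were -0.11 (standard error 0.074, adjusted p = 0.261, 95% interval -0.29 to 0.07) and -0.08 (standard error 0.074, adjusted p = 0.457, 95% interval -0.26 to 0.10). Another BUB3 probe had -0.26 (adjusted p = 0.0107) and -0.51 (adjusted p = 0.00198), so the probes of this gene do not agree on whether it passed the test. MAD2L1, the checkpoint's MAD2, had signals of 5.76 and 5.62 against 10.7 and 9.92 in OVSAHO and of 4.33 and 4.31 against 8.70 and 7.88 in KURAMOCHI. It was lower with simvastatin on all arrays of both lines, at -0.86 (standard error 0.074, adjusted p = 4.39e-04) and -0.94 (standard error 0.074, adjusted p = 7.63e-04). The kinases TTK and BUB1 had -1.31 and -1.20 in OVSAHO and -0.98 and -0.92 in KURAMOCHI, and ZWILCH, of the complex that brings dynein and MAD1 to unattached kinetochores, had -1.02 and -0.63.

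The chromosomal passenger complex, which corrects faulty attachments, and the shugoshins, which protect cohesion at centromeres, had medians of -1.26 in OVSAHO and -0.87 in KURAMOCHI, with 5 and 1 of 6 called lower. SGO2 had signals of 0.734 and 0.705 with simvastatin and 1.98 and 1.93 with L-778123 in OVSAHO, and of 1.27 and 1.32 against 2.35 and 2.30 in KURAMOCHI. Its levels with simvastatin were lower in OVSAHO than in KURAMOCHI on both arrays, and its log2 fold changes were -1.44 (standard error 0.057, adjusted p = 4.41e-05) and -0.84 (standard error 0.057, adjusted p = 5.09e-04). SGO1 had signals of 0.555 and 0.446 against 1.27 and 1.24 in OVSAHO, and of 0.929 and 0.888 against 1.63 and 1.79 in KURAMOCHI. The fall was -1.33 (standard error 0.11, adjusted p = 4.43e-04) and -0.91 (standard error 0.11, adjusted p = 0.00337) at this probe and -2.37 and -1.63 at its other, and with the median over both the KURAMOCHI value passed the fold, at -1.27. SGO1 and WDR62 were among the genes that the study extracted from these same arrays, so their direction is not independent evidence. CDCA8, which encodes borealin, had signals of 15.3 and 14.9 against 28.0 and 30.5 in OVSAHO and of 12.6 and 12.8 against 24.1 and 22.7 in KURAMOCHI. It was the least changed of the complex in OVSAHO, at -0.95 (standard error 0.068, adjusted p = 2.31e-04), with -0.88 (standard error 0.068, adjusted p = 7.33e-04) in KURAMOCHI. The kinase AURKB had -1.36 and -1.23, its activator INCENP -1.19 and -0.82, and BIRC5, or survivin, -1.13 and -0.87.

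The mitotic cyclins, their kinase and the genes of anaphase onset had medians of -1.03 in OVSAHO and -0.78 in KURAMOCHI, with 4 and 2 of 7 called lower. CDK1, the kinase that drives entry into mitosis, had signals of 7.27 and 7.05 with simvastatin and 19.9 and 18.5 with L-778123 in OVSAHO, and of 3.86 and 3.94 against 8.92 and 8.59 in KURAMOCHI. OVSAHO with simvastatin thus lay between the KURAMOCHI groups, and the log2 fold changes were -1.42 (standard error 0.062, adjusted p = 5.41e-05) and -1.17 (standard error 0.062, adjusted p = 2.77e-04). With the median over its probes the KURAMOCHI value was -0.97 and was not called. CCNA2, or cyclin A2, had signals of 0.938 and 0.916 against 2.75 and 2.53 in OVSAHO, and of 0.878 and 0.838 against 1.77 and 1.77 in KURAMOCHI. The lines differed with L-778123 and were close with simvastatin, at -1.51 (standard error 0.065, adjusted p = 5.33e-05) and -1.05 (standard error 0.065, adjusted p = 4.02e-04), the latter -0.94 and not called with normexp. PTTG1, or securin, the inhibitor of separase, had signals of 95 and 92.3 against 167 and 142 in OVSAHO and of 70.2 and 69.8 against 111 and 111 in KURAMOCHI. Its falls of 0.72 (standard error 0.088, adjusted p = 0.00153) and 0.66 (standard error 0.088, adjusted p = 0.00387) on the log2 scale were the smallest of this group in OVSAHO. Cyclins B1 and B2, encoded by CCNB1 and CCNB2, had -1.09 and -0.88 in OVSAHO and -0.87 and -0.78 in KURAMOCHI. CDC20, which activates the anaphase promoting complex, had -1.03 and -0.70, and CDC25C, a phosphatase that activates CDK1, -0.96 and -0.53.

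The spindle assembly genes had medians of -1.17 in OVSAHO and -0.90 in KURAMOCHI, with 6 and 1 of 7 called lower. WDR62, a spindle pole protein, had signals of 6.24 and 5.61 with simvastatin and 16.4 and 15.6 with L-778123 in OVSAHO, and of 6.91 and 6.72 against 17 and 15.3 in KURAMOCHI. The lines were close in level with either drug, and the log2 fold changes were -1.43 (standard error 0.084, adjusted p = 1.20e-04) and -1.25 (standard error 0.084, adjusted p = 5.05e-04). Its other probe did not exceed background on any simvastatin array, and was at least 2.48-fold lower in OVSAHO and at least 2.23-fold lower in KURAMOCHI. HMMR, a microtubule-associated protein of the spindle, had signals of 12.6 and 12.8 against 23.7 and 22.8 in OVSAHO and of 14.6 and 14.9 against 26.3 and 25.5 in KURAMOCHI. It was lower with simvastatin on every array of both lines, at -0.87 (standard error 0.055, adjusted p = 1.53e-04) and -0.81 (standard error 0.055, adjusted p = 5.14e-04), and had the smallest change of the group in each. KIF11, the kinesin that pushes spindle poles apart, had -1.37 and -0.86, ASPM, a spindle pole protein, -1.28 and -0.93, and KIF2C, a kinesin that takes microtubules apart, -1.15 and -0.94. The kinase AURKA and its activator TPX2 had -1.17 and -1.11 in OVSAHO and -0.82 and -0.90 in KURAMOCHI.

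The cytokinesis genes had the lowest median of the 8 roles in each line, -1.38 in OVSAHO and -1.05 in KURAMOCHI, over 4 genes of which 3 and 2 were called lower. ANLN, or anillin, a scaffold of the contractile ring, had signals of 0.611 and 0.604 with simvastatin and 2.03 and 1.98 with L-778123 in OVSAHO, and of 1.18 and 1.15 against 3.74 and 3.70 in KURAMOCHI. All KURAMOCHI arrays were above the OVSAHO arrays of the same drug, yet the falls were near equal, at -1.72 (standard error 0.052, adjusted p = 2.26e-05) and -1.67 (standard error 0.052, adjusted p = 1.06e-04), the latter the lowest value of the 54 genes in KURAMOCHI. ECT2, the exchange factor that activates RhoA at the cleavage site, had signals of 1.93 and 1.79 against 3.70 and 3.30 in OVSAHO, and of 1.66 and 1.61 against 3.01 and 2.86 in KURAMOCHI. It passed the adjusted p but not the fold, at -0.91 (standard error 0.081, adjusted p = 4.87e-04) and -0.85 (standard error 0.081, adjusted p = 0.00137). The kinesins KIF23 and KIF20A, which organise the central spindle, had -1.54 and -1.21 in OVSAHO and -1.25 and -0.72 in KURAMOCHI.

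The condensin and chromosome structure genes had medians of -1.15 and -0.86, with 4 and 2 of 5 called lower. NCAPG, a subunit of condensin I, had signals of 0.266 and 0.283 with simvastatin and 0.969 and 1.01 with L-778123 in OVSAHO, and of 0.472 and 0.517 against 1.28 and 1.09 in KURAMOCHI. The simvastatin arrays were at under 1/2 of the L-778123 arrays in both lines, at log2 fold changes of -1.85 (standard error 0.098, adjusted p = 9.09e-05) and -1.25 (standard error 0.098, adjusted p = 7.50e-04). SMC4, an ATPase shared by both condensins, had signals of 15.7 and 15.2 against 20.3 and 20.2 in OVSAHO, and of 10.5 and 9.78 against 14.7 and 9.80 in KURAMOCHI, where the treatments overlapped. Its log2 fold changes of -0.39 (standard error 0.18, adjusted p = 0.129, 95% interval -0.84 to 0.06) and -0.24 (standard error 0.18, adjusted p = 0.362, 95% interval -0.69 to 0.21) did not pass, and the latter was 0.05 without KURAMOCHI L-778123 replicate 1, but a dimmer probe of SMC4 had -0.81 (adjusted p = 8.53e-04) and -0.79 (adjusted p = 0.00199). MKI67, which encodes the proliferation marker Ki-67 that coats mitotic chromosomes, had signals of 1.27 and 1.15 against 2.68 and 2.66 in OVSAHO and of 0.536 and 0.629 against 1.25 and 1.36 in KURAMOCHI. The falls were of like size, at -1.15 (standard error 0.10, adjusted p = 4.91e-04) and -1.16 (standard error 0.10, adjusted p = 0.00105), although OVSAHO had the higher signal with either drug, and the KURAMOCHI value was -0.90 and not called with normexp. TOP2A, the topoisomerase that untangles chromosomes, had -1.26 and -0.86, and NCAPH, of condensin I, -1.06 and -0.85.

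**Figure D2:**
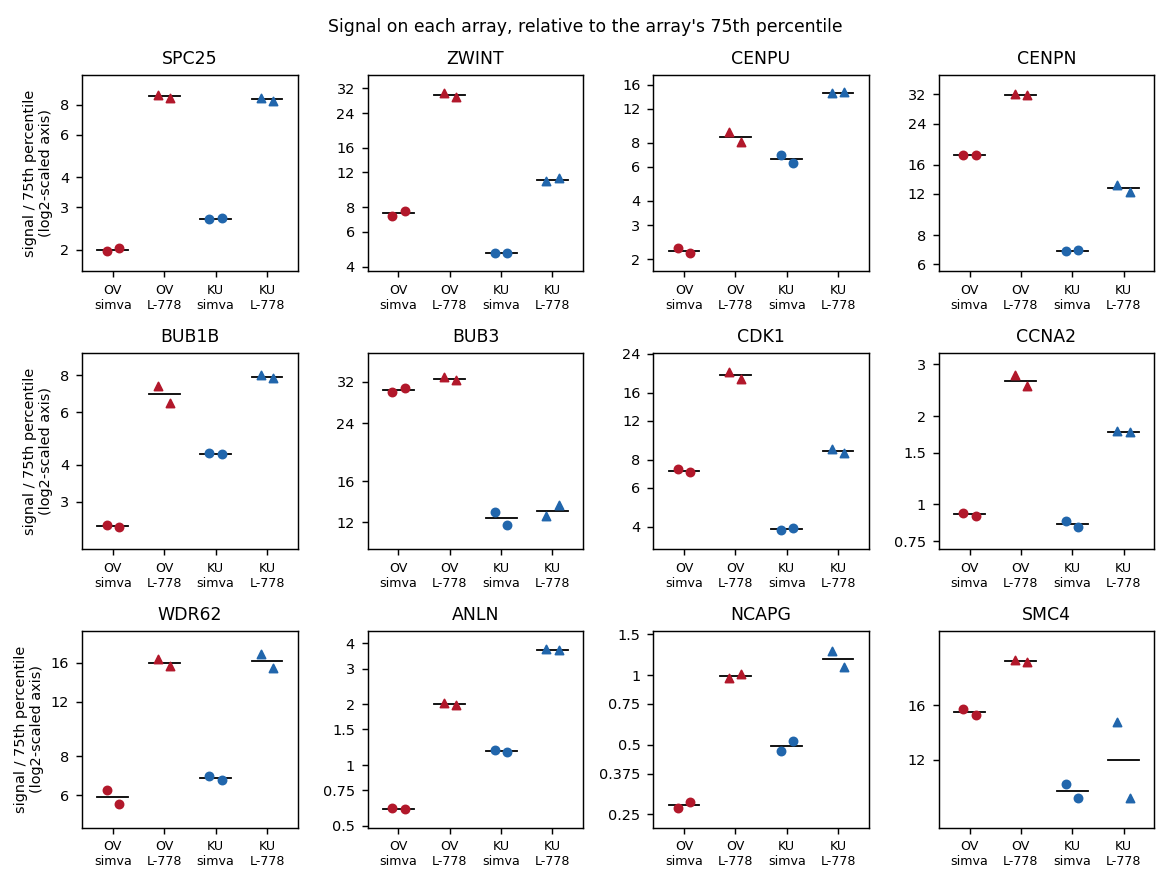
Signal of 12 of the genes on each array relative to that array's 75th percentile (y axis, scaled by log2) in the 4 groups (x axis, OVSAHO and KURAMOCHI with simvastatin or L-778123), with a point per array (circles simvastatin, triangles L-778123) and a bar at the geometric mean of the 2 arrays. The simvastatin arrays lie below the L-778123 arrays of the same line for each gene shown except BUB3 and SMC4 in KURAMOCHI, where they overlap.

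Over all members, 14 genes had more than 1 probe, and in OVSAHO the probes lay within 0.5 of each other on the log2 scale for 9 of them and further apart for 5, CENPN, KNL1, WDR62, SGO1 and MKI67. For KNL1, the second probe did not exceed background with the statin in OVSAHO, where its fall was at least 2.22-fold. In these 5 genes each probe had a value below 0 in both lines.

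Set side by side, 17 of the 54 genes were called lower in both lines, 23 in OVSAHO only, 0 in KURAMOCHI only and 14 in neither. A call in a single line does not show a difference between lines, so the difference of the drug contrasts was tested itself. It was below 0, that is, a deeper fall in OVSAHO, at an adjusted p under 0.05 for 19 of 54 genes, against 14% of all genes. It was above 0 for 0 genes, against 13.5% of all genes. Of the 54 genes, 4 had a value above 0, and 0 of them reached an unadjusted p under 0.05 with limma or with the two-way analysis of variance. The median difference was -0.28, against -0.01 for all genes, and 50 of 54 were below 0. Only 8 of the 23 genes called in OVSAHO alone had a difference that passed. The log2 fold changes of the lines, which come from separate arrays, correlated over the 54 genes with Pearson's r at 0.802 and Spearman's rho at 0.77, given as a description, since genes share arrays and are not independent. The count of 19 is less firm than the counts within a line. It was 7 to 16 with each array left out in turn, and moved by over 1.5 times without each array other than OVSAHO L-778123 replicate 2. The counts were 11 and 7 without OVSAHO simvastatin replicate 1 and 2, 10 without OVSAHO L-778123 replicate 1, 7 and 10 without KURAMOCHI simvastatin replicate 1 and 2, and 10 and 8 without KURAMOCHI L-778123 replicate 1 and 2.

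The genes with the deepest excess in OVSAHO were kinetochore genes. CENPU had a difference of -0.82 (standard error 0.12, adjusted p = 0.0079 from limma), ZWINT of -0.77 (standard error 0.085, adjusted p = 0.00338) and CENPF of -0.63 (standard error 0.085, adjusted p = 0.00595). The second probe of ZWINT also passed, at -0.84 (adjusted p = 0.00256), whereas that of CENPF did not, at -0.33 (adjusted p = 0.187). All 3 were lower with simvastatin in both lines, and by more in OVSAHO. By role, the difference passed for 3 of 7 inner and 7 of 12 outer kinetochore genes, 1 of 6 checkpoint genes and 1 of 6 passenger and shugoshin genes. It also passed for 2 of 7 cyclin and anaphase genes, 2 of 7 spindle assembly genes, 2 of 4 cytokinesis genes and 1 of 5 condensin and chromosome genes. At the other end SKA1 had a difference of 0.19 (95% interval -0.51 to 0.89), MAD2L1 of 0.08 (95% interval -0.18 to 0.34) and CENPN of 0.03 (95% interval -0.17 to 0.23). ANLN, with one of the largest falls in each line, had -0.05 (95% interval -0.23 to 0.13), and MKI67 had 0.02 (95% interval -0.34 to 0.37). The interval of ANLN leaves no room for a difference as large as that of CENPU, whereas that of SKA1 is wide. The signs of these small differences are not settled, since with normexp SKA1 had -0.16, ANLN 0.09 and MKI67 -0.21, and with the median over probes CENPN had -0.30. Of the other lists, the difference passed below 0 for 8 of 20 kinetochore genes, 7 of 18 spindle genes and 3 of 5 condensin subunits. The same held for 5 of 11 regulators of transcription, 2 of 17 anaphase promoting complex genes and 1 of 10 cohesin genes. Above 0 it passed for 1 regulator and 1 anaphase promoting complex gene. Of the spindle list, NEK2 had -0.86 (adjusted p = 0.00515), below CENPU, and KIF15 -0.78 (adjusted p = 0.00351), between CENPU and ZWINT.

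**Figure D3:**
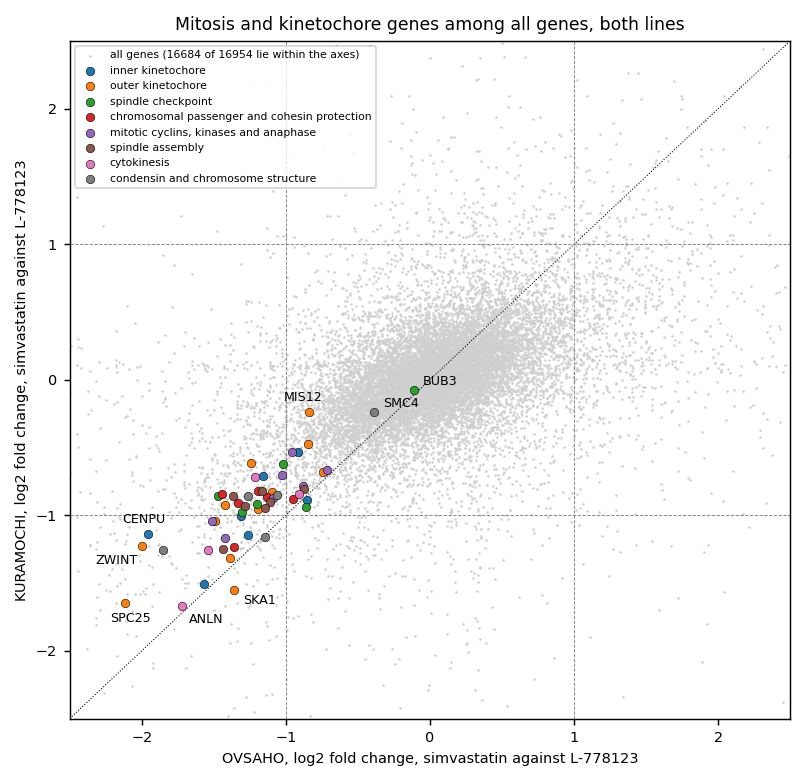
Log2 fold change with simvastatin against L-778123 in OVSAHO (x axis) and KURAMOCHI (y axis) for the 54 genes, coloured by role, on all genes in grey, of which 16684 of 16954 lie within the axes. The members lie in the lower left quadrant, and 50 of 54 lie above the dotted line of equal change, with a larger fall in OVSAHO.

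The same arrays also give the level of each gene in OVSAHO relative to KURAMOCHI with each drug, so these values share arrays with the ones above. With L-778123, 10 of 54 genes were called higher in OVSAHO, against 17.9% of all genes, and 0 lower, against 16.3%. By limma 0 of the 54 were lower at an unadjusted p under 0.05 with the fold, and the two-way analysis of variance called 0. Without the fold 17 of the 54 were lower by limma at that p. The share of all genes at that rule was not computed, so the count of 17 cannot be set against it. With simvastatin, 6 were called higher, against 18.9%, and 4 lower, against 17.3%. The median moved from 0.25 with L-778123 (all genes 0.02) to -0.04 with simvastatin (all genes 0.03). BIRC5 stood highest with L-778123, with signals of 102 and 106 in OVSAHO and 26.0 and 24.1 in KURAMOCHI, and 47.6 and 47.2 against 13.6 and 13.9 with simvastatin. OVSAHO was above KURAMOCHI on all arrays, by 2.05 and 1.79 on the log2 scale. SKA1 followed at 1.92 and 2.11, and CENPN, BUB3, SPC24 and MKI67 were also called higher with both drugs, at 1.04 to 1.33 with L-778123 and 1.04 to 1.36 with simvastatin. CENPH, CDK1, CCNB1 and ZWINT were called higher with L-778123 and not with simvastatin. The genes called lower in OVSAHO with simvastatin were CENPU (-1.58), MIS12 (-1.33), INCENP (-1.19) and SKA3 (-1.03), which had -0.76, -0.72, -0.81 and -0.58 with L-778123. CENPF was level with L-778123, at 0.01, and lower in OVSAHO with simvastatin, at -0.62.

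**Figure D4:**
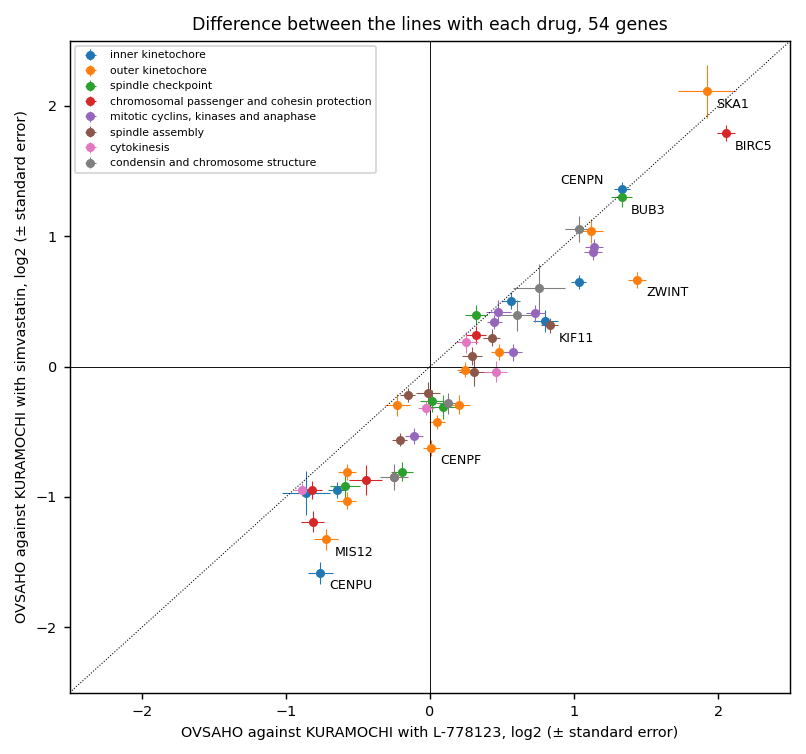
Level in OVSAHO relative to KURAMOCHI with L-778123 (x axis) and with simvastatin (y axis), as log2 values with limma standard errors, for the 54 genes coloured by role. BIRC5 and SKA1 lie furthest to the upper right, at about 2 with both drugs, CENPU lies lowest, and most genes lie below the dotted line of equality.

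Genes of the same processes that were not members behaved unevenly. Of 18 other spindle and cytokinesis genes, 11 were called lower in OVSAHO and 7 in KURAMOCHI, with medians of -1.12 and -0.82, from KIF15, a spindle kinesin, at -1.80 to KIF18B at -0.30 (adjusted p = 0.561) in OVSAHO. KIF18B was dim, with OVSAHO signals of 0.0686 and 0.0639 against 0.0763 and 0.0872, which limits the size of a fall it can show. Of 20 other kinetochore and centromere genes, 8 and 1 were called lower, with medians of -0.81 and -0.46. CENPO, of the same group of constitutive proteins as CENPU, was the lowest at -1.46 in OVSAHO, and CENPT, the DNA-binding partner of CENPW, was at 0.72 (adjusted p = 0.0187), under the fold asked for. Of 5 other condensin subunits 3 and 0 were called lower, with medians of -1.15 and -0.64, from NCAPG2 at -1.32 to NCAPH2 at -0.29 in OVSAHO. For comparison, the members of the condensin and chromosome group that are condensin subunits had -1.85, -1.06 and -0.39.

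Cohesin, whose rings hold sister chromatids together, and the anaphase promoting complex had medians closer to 0. Of 10 genes of cohesin and its regulators, 1 was called lower in each line, CDCA5, or sororin, a protector of cohesion, at -1.41 and -1.02, at the adjusted p alone 3 and 2 were lower, and the medians were -0.11 and 0.01, with STAG2, a ring subunit, highest in OVSAHO at 0.28. Of 17 genes of the anaphase promoting complex and its E2 enzymes, 1 and 0 were called lower, and 10 and 5 were lower at the adjusted p alone, with medians of -0.24 and -0.14, from ANAPC15 at -1.01 to CDC16 at 0.44 in OVSAHO. No test was made between lists. Of 11 regulators of transcription late in the cell cycle, 3 and 2 were called lower, with medians of -0.60 and -0.15. MYBL2, or B-MYB, was lowest, with -1.93 in OVSAHO (adjusted p = 3.3e-05) and -1.67 in KURAMOCHI (adjusted p = 1.62e-04), and LIN37, of the DREAM complex, which holds such promoters silent in resting cells, was highest, with 0.54 (adjusted p = 7.68e-04) and 0.16 (adjusted p = 0.0763), under the fold asked for.

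**Figure D5:**
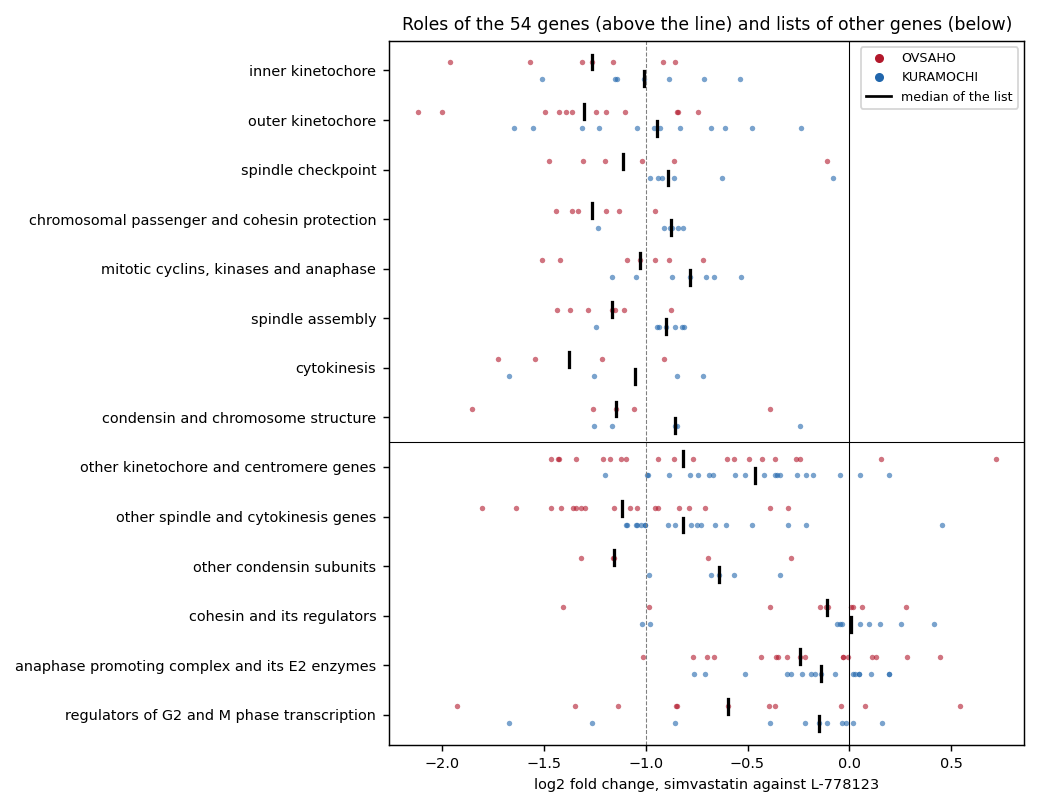
Log2 fold change with simvastatin against L-778123 (x axis) of each gene (points) of the 8 roles of the 54 genes and of 6 lists of other genes (y axis), in OVSAHO and KURAMOCHI, with a black bar at the median of each list. The medians of the 8 roles lie from -1.38 to -0.78, and those of cohesin and of the anaphase promoting complex lie between -0.24 and 0.01.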

How the data were processed

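RNA of 4 groups, each with 2 arrays, was compared as the deposited labels group it. The authors extracted the scans with Agilent Feature Extraction 11.5.1.1 and deposited, per array, the processed intensity of each spot, corrected for background within the array and not normalised between arrays. They also deposited a table of processed intensity, whose percentiles from 1 to 99 are the same on every array within 0.1%. The methods state scaling to the 75th percentile, which alone does not give this, and the step that does is not given in the sources used here.

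Control spots and outlier spots (58 to 99 per array) were left out, spots of a probe were averaged as log2, and each array's 75th percentile was subtracted. The filter kept 33752 of 58162 probes, those that exceeded background on all arrays of a group. RefSeq accessions named 24768 of 50069 identifiers. A later assembly than the hg19 of the array design supplied only names and promoters. Comparisons were fitted with limma 3.58.1 in R 4.3.3 over the 4 groups, with Benjamini-Hochberg adjustment over all probes. A call needs an adjusted p under 0.05 and, within a line or between lines, a fold of at least 2, as in the methods. Standard errors share 1 estimate of spread per probe. For a bound, the dimmer group was set, array by array, to the higher of the probe's signal and the lowest signal that exceeded background.

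The members, roles and other lists were chosen with earlier results of these data known. Values on every array are given for the lowest and highest member of each role in OVSAHO, for the 3 lowest and 3 highest differences between lines, and for CDK1, MKI67, WDR62 and SGO1. MIS12, BIRC5 and other members named with single values were chosen after their values were seen. The fit was tested on simulated data. Alternatives were other filters, normexp (offset 50, on median signals, since mean signals were not used here), quantile normalisation, the authors' table and a floor. Another took the 75th percentile over only the probes well above background on all arrays. The rest were only the groups compared, the replicate number as a block, other thresholds and the two-way analysis of variance of the methods. The median over probes and each array left out were also used. With a single slide there was no slide term. Plots used matplotlib 3.10.9 (Python 3.11.15).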

Additional observations from a re-analysis of the deposited data

Results flagged for a closer look

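For 8 of the genes described on every array, the effect of simvastatin relative to L-778123 differed between the lines by limma's test of the difference itself. Each value, the log2 fold change in OVSAHO less that in KURAMOCHI, was below 0. They were -0.822 for CENPU (adjusted p = 0.0079), -0.769 for ZWINT (0.00338), -0.631 for CENPF (0.00595), -0.612 for BUB1B (0.013), -0.599 for SGO2 (0.00607), -0.597 for NCAPG (0.0315), -0.472 for SPC25 (0.0107) and -0.464 for CCNA2 (0.0198). The difference of NCAPG missed the threshold without 7 of the 8 arrays, each in turn, at adjusted p of 0.0565 to 0.092, and that of CCNA2 without 5 of them, at 0.0539 to 0.0663. With no filter on dim probes SPC25 (0.0594), BUB1B (0.0526), CCNA2 (0.0834) and NCAPG (0.0953) missed it, while CENPU, ZWINT, CENPF and SGO2 passed. No array of untreated cells was analysed, and each line had its own positions on the slide, so a difference between lines cannot be told apart from position or assigned to either drug.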

How the results depend on the processing

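Counts under the alternatives are of members alone, and the shares of all genes under them were not computed. In OVSAHO the count of genes called lower was 36 to 52 over all alternatives (main value 40), and in KURAMOCHI it was 12 to 18 (main value 17) apart from 48 with a fold of at least 1.5. The difference between lines, below 0 for 19 genes, was below 0 for 4 with no filter on dim probes, 4 at an adjusted p under 0.01, 7 with a fold of at least 1.5 and 7 to 16 with each array left out. Leaving out the filter did not change the members' median in OVSAHO, -1.2, or the difference of SPC25, -0.472. The adjusted p of that difference from limma went from 0.0107 to 0.0594. The median of all probes, taken there over the dim ones as well, was 0.209 in OVSAHO and 0.133 for the difference, on the log2 scale. Between lines with L-778123, 8 genes were lower with a fold of at least 1.5, against 0, and 0 to 1 with each array left out. With simvastatin, a fold of at least 1.5 gave 11 higher and 15 lower, against 6 and 4, and leaving out each array gave 5 to 6 higher and 3 to 7 lower. That comparison's median, -0.0394, was 0.0115 without KURAMOCHI simvastatin replicate 2 and ranged from -0.0948 to 0.0115 over the arrays left out, so it has no settled sign. The cause of these shifts was not tested, beyond the stricter thresholds themselves. The replicate number does not pair the arrays (correlations of deviations 0.000845 to 0.0556), and with it as a block the counts were 40 in OVSAHO, 17 in KURAMOCHI and 16 for the difference, where NCAPG no longer passed (adjusted p = 0.0582). The fit of only the groups compared has no value for the difference between lines. Over the single genes, 1372 values kept their side of the threshold, 30 lost the call and 24 gained it. No called value changed sign, but 18 uncalled ones did, 17 of them differences between lines and the other SMC4 in KURAMOCHI. The number of arrays limits every value, and a probe near background limits the size of a fall.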
